A study of Mus musculus with 8 samples.

Results

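The integrins described here are 10 chains of matrix adhesion receptors: the alpha chains Itga1, Itga2, Itga3, Itga5, Itga6, Itga11 and Itgav and the beta chains Itgb1, Itgb3 and Itgb5. They were taken by gene symbol from a table of 31276 genes, and all 10 were found. RNA was sequenced from C3H10T1/2 cells, a multipotent mesenchymal line derived from C3H mouse embryos, at passages 10 to 15 in medium with 10% serum. Each of 8 lines stably carried a histone H3 transgene with a FLAG-HA epitope tag. The H3.3 lines expressed the wild-type histone (WT) or the substitution K36A, K36I, K36L, K36M or K36R, in which lysine 36 is replaced by alanine, isoleucine, leucine, methionine or arginine. The H3.1 lines expressed K36M or K36R, and no line with wild-type H3.1 was analysed here. Every line, the WT line included, therefore made a tagged histone beside its own H3. Each transgene had 1 library, so lines stood in for replicates of a class, and the sources used here do not say whether a line was a clone or a pool of cells. The p-values thus measure the spread between lines with different transgenes.

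Integrins sit in the cell membrane as pairs of an alpha and a beta chain, which bind the extracellular matrix outside the cell and link it to actin through adaptor proteins inside. The alpha chain largely sets the ligand. The chains α1, α2 and α11 pair with β1 as collagen receptors, α3 and α6 pair with β1 (α6 also with β4) as laminin receptors, and α5 pairs with β1 as the main fibronectin receptor. The αv chain pairs with several beta chains, among them β3 and β5, and binds vitronectin, fibronectin, osteopontin and other ligands through the tripeptide motif RGD. Mesenchymal cells rely on these receptors for attachment and spreading and for sensing the matrix they secrete. Histone H3 with K36M or K36I is known to inhibit H3K36 methyltransferases, which is the reason for comparing these lines with the rest.

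The libraries held 61139941 to 68020958 reads on the 6 H3.3 lines and 45448249 to 53199065 on the 2 H3.1 lines, so that histone and depth could not be told apart. All 10 mesenchymal markers passed the filter on low values, and their summed level was 529600 to 722800 normalised reads in the K36M and K36I lines and 715100 to 1000000 in the other lines. Of 6 epithelial markers, Epcam, Krt5 and Krt18 stayed under 10 normalised reads in every library, and among the leukocyte markers, Ptprc and Cd3e did. In these bulk libraries, fewer cells of a type and less RNA per cell cannot be told apart.

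The promoter sequences of Itgb5, Itga3 and Itga1 are printed because these genes were among those with the main differences below. Itga6 also passed between the H3.1 and H3.3 lines, but the RefSeq promoters used here held no entry for Itga6 or Itgb3. Itgb5 passed the test in each of the 3 comparisons, and Itga1 and Itga3 moved in opposite directions between the H3.1 and H3.3 lines. Each sequence runs from 250 bases before to 50 bases after the RefSeq transcription start on build GRCm38.p6, 5′ to 3′ on the gene's strand, and capitals mark GC boxes (GGGCGG on either strand). The Itgb5 window lies at chr16:33829415-33829714 on the plus strand, the Itga3 window at chr11:95076665-95076964 on the minus strand and the Itga1 window at chr13:115101915-115102214 on the minus strand.
Itgb5: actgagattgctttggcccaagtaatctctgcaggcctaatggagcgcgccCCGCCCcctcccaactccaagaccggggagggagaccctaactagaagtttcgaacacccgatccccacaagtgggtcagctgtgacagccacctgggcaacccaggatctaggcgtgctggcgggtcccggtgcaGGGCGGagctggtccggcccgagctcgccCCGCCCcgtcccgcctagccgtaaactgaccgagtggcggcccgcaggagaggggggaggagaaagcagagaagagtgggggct
Itga3: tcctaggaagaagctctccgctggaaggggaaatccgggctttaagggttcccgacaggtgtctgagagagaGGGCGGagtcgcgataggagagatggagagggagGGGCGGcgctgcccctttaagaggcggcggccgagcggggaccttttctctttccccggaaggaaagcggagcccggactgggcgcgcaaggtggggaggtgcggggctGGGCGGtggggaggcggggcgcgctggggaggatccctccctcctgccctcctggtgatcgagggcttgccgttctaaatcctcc
Itga1: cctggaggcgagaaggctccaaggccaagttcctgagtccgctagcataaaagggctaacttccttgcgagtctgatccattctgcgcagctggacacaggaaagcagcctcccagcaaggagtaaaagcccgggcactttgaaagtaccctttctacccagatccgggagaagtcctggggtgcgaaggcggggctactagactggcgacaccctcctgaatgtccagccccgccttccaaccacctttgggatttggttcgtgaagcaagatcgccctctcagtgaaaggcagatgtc
The Itgb5 and Itga3 windows each held 3 GC boxes, and the Itga1 window held 0. Across 32851 RefSeq promoter windows of this length, 35.7% held at least 1 GC box. The GC content was 65.7% at Itgb5, 66.7% at Itga3 and 56.7% at Itga1, with a median of 52.7% over all windows. No TATAAA sequence was found on either strand in these 3 windows, and 13.6% of all windows held one. These matches describe letters only, since no binding was measured. RefSeq lists a second start for Itga3, in a window at chr11:95069149-95069448.

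The dominant integrin transcripts in all 8 lines were β1, β5 and αv. To compare different genes, normalised reads (the reads of a gene over its library's size factor) were divided by the length of the merged exons in GENCODE M21. The median level was 16500.0 normalised reads per kb for Itgb1 (range over 8 libraries 13425 to 21651), 3528 for Itgb5 (2630.4 to 6946) and 1669 for Itgav (1315 to 2336). The ranges of these 3 genes did not overlap each other, and Itgb1, the common partner of most alpha chains, was the highest in every library. Itga6 followed at 848 per kb (358 to 1185), then Itga5 at 777 (692 to 1216) and Itgb3 at 616 (294 to 1329). The order of these 3 was not fixed, since their ranges overlapped. Itga11 had a median of 223 per kb (124 to 301), Itga3 of 108 (12.9 to 173) and Itga1 of 37.9 (14.2 to 344), again with ranges that overlapped from each gene to the next. Itga2, the alpha chain of the collagen receptor on platelets and epithelia, was lowest, at 1.08 per kb (0.546 to 3.13), and its range lay below that of Itga1.

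**Figure D1:**
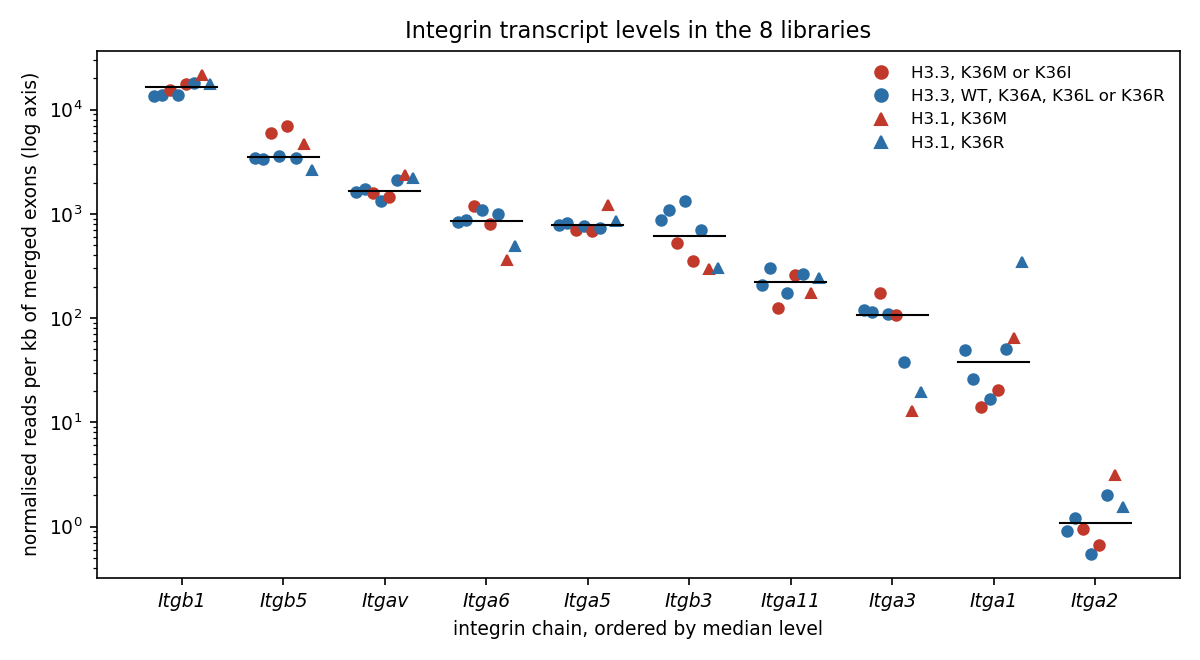
Levels of the 10 integrin chains in normalised reads per kb of merged exons (log axis), ordered by the median over the 8 libraries (black bar). Each point is 1 library. Circles are H3.3 lines, triangles are H3.1 lines, and red marks K36M or K36I. Itgb1 lies at 13425 or above in every library, while Itga1 and Itga3 spread the most.

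The 9 chains that passed the filter differed widely in how far they ranged. On the deposited log2 scale the median tested gene spanned 0.56 between its lowest and highest library. Itga1 spanned 4.11, more than 99.1% of the 14215 tested genes, and Itga3 spanned 2.66, more than 96.5%. Itgb3 spanned 2.10 (more than 94.2%), Itga6 1.69 (90.9%) and Itgb5 1.39 (87.3%). At the other end, Itgb1 spanned 0.69, more than 63.0% of tested genes. The 2 genes with the widest span are alpha chains of receptors for different ligands, collagen for Itga1 and laminin for Itga3.

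The αv partner β5 was higher in the K36M and K36I lines. Itgb5, on chromosome 16 (33829665 to 33949338, plus strand), encodes the beta chain of αvβ5, a vitronectin receptor. It had 21041 normalised reads in H3.3 K36I, 24677 in H3.3 K36M and 16824 in H3.1 K36M. The other lines had 12161 in H3.3 WT, 11957 in K36A, 12799.7 in K36L, 12272 in H3.3 K36R and 9346 in H3.1 K36R. The groups did not overlap, as for 21.5% of tested genes, and 4 of the 5 other lines lay within a narrow band, with H3.1 K36R below them. The means were 20847 ± 3930.1 (SD, n = 3) and 11707 ± 1356 (SD, n = 5), a ratio of 1.78. On the deposited log2 scale the difference was 0.82 (SE 0.14, 95% interval 0.49 to 1.14), with an adjusted p of 0.00739 in limma over all tested genes. Itgb5 was the only member of the 9 tested that passed at the threshold of 0.05, beside 13.3% of all tested genes (917 higher and 970 lower, or 1156 and 805 with library medians set equal). Leaving out each library in turn gave differences from 0.69 to 0.96 and adjusted p from 0.00364 to 0.0319 for Itgb5.

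β3, the alternative partner of αv, leaned the other way without passing. Itgb3, on chromosome 11 (104608000 to 104670476, plus strand), encodes the beta chain of αvβ3, and of the platelet fibrinogen receptor with αIIb. Its normalised reads were 3103 in H3.3 K36I, 2081 in H3.3 K36M and 1738 in H3.1 K36M. The other lines had 5194 in WT, 6472 in K36A, 7839 in K36L, 4167 in H3.3 K36R and 1788 in H3.1 K36R. The 4 other H3.3 lines all lay above the K36M and K36I lines, and the groups overlapped through H3.1 K36R, which was as low as H3.1 K36M. The difference was -0.99 (SE 0.43, 95% interval -1.96 to -0.02) with a limma adjusted p of 0.169. Leaving out each library in turn gave Itgb3 differences from -1.32 to -0.80 and limma adjusted p from 0.0141 to 0.34. Itgb3 passed only without H3.1 K36R, where the difference was -1.32. With histone as a covariate the adjusted p was 0.0625. Over the 6 H3.3 lines alone, a comparison added after the data were seen, Itgb3 passed at -1.14 (adjusted p 0.0269) and Itgb5 at 0.88 (adjusted p 0.00135). The summed level of the platelet markers, which include the β3 partner Itga2b, was 419 to 474 in the K36M and K36I lines and 305 to 395 in the others, with Gp9 and Pf4 under 10 in every library. The summed endothelial markers were 496 to 595 in the K36M and K36I lines and 1816 to 3373 in the others. Most of that sum was Tek, which fell by 2.41 (limma adjusted p 6.23e-04), 1 of 2 tested endothelial markers. The other tested marker did not pass, and the median difference of the 2 was -1.08. Kdr and Tie1 stayed under 10 in every library. The part of either marker list in the Itgb3 and Itgb5 values was not tested.

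Per kb, Itgb5 exceeded Itgb3 in every line. The ratio of Itgb5 to Itgb3 was 11.3 in H3.3 K36I, 19.7 in H3.3 K36M and 16.1 in H3.1 K36M. It was 3.89 in WT, 3.07 in K36A, 2.71 in K36L, 4.89 in H3.3 K36R and 8.68 in H3.1 K36R. The 3 K36M and K36I lines thus had the highest ratios, with H3.1 K36R next, the line in which Itgb5 was lowest and Itgb3 was also low. This ratio was formed after the values of both genes were known and is given without a test.

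**Figure D2:**
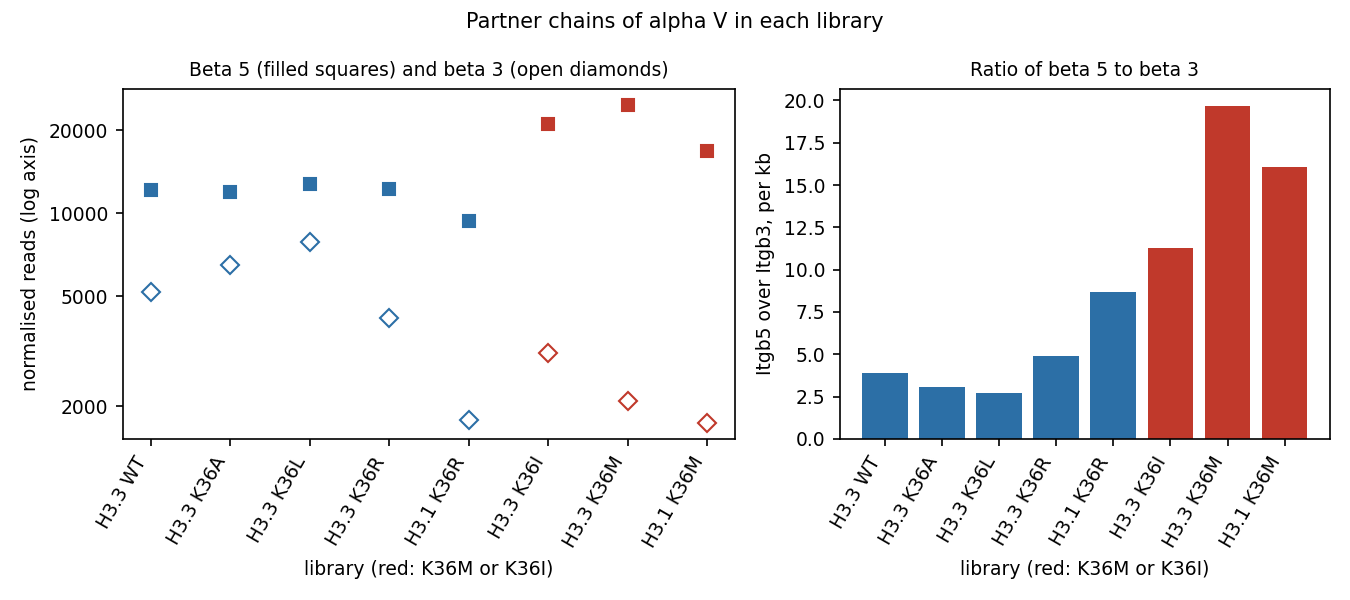
Left, normalised reads (log axis) of Itgb5 (filled squares) and Itgb3 (open diamonds) in each of the 8 libraries. Right, the ratio of Itgb5 to Itgb3 per kb of merged exons. Red marks K36M or K36I, whose ratios run from 11.3 to 19.7, against 2.71 to 8.68 in the other lines.

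The remaining 7 tested chains did not pass between the K36M and K36I lines and the others, and their intervals set how large a change could have been missed. For Itgav, the shared partner of β3 and β5, the difference was -0.01 (SE 0.20, 95% interval -0.48 to 0.45). For Itgb1 it was 0.24 (SE 0.15) and for Itga5 0.08 (SE 0.17), with adjusted p of 0.341 and 0.807. Itga11, the collagen receptor chain of fibroblasts, had -0.36 (SE 0.23, adjusted p 0.35). For Itga1 the difference was -0.86 (SE 0.83), for Itga3 0.05 (SE 0.65) and for Itga6 -0.23 (SE 0.38), and these 3 genes also separated the H3.1 from the H3.3 lines inside each class. The median difference over the 9 members was -0.01, the same as over all tested genes.

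When only the substitutions present on both histones were compared, β5 again passed. In K36M (2 lines) against K36R (2 lines), with histone as a term, Itgb5 was 0.92 higher (SE 0.14, limma adjusted p 0.0432), with means of 20751 ± 5553 and 10809 ± 2069 (SD, n = 2 each). It was the only 1 of 9 members to pass, beside 4.50% of tested genes. On H3.3 the difference was 1.0 and on H3.1 it was 0.84. Itga1 was next, at -1.71 (SE 0.31, adjusted p 0.0654), from 376 and 1200.0 normalised reads with K36M on H3.3 and H3.1 to 948 and 6389 with K36R. On each histone it was lower with K36M, although the ranges of the groups overlapped. The call for Itgb5 did not hold without the histone term (adjusted p 0.204) or without the intensity trend (0.0542). With 1 of the 4 libraries left out, no residual degrees of freedom remain beside the histone term, so that term was left out together with each library. These fits gave differences from 0.65 to 1.19 and adjusted p from 0.0662 to 0.688, and the 2 changes cannot be told apart in them. The K36M lines also belong to the 3 lines compared above, so the results share libraries.

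Set against the WT line, the members again differed most in Itga1, Itgb3 and Itga3, with no test because each side had 1 library. A difference of at least 1 on the deposited log2 scale was counted. H3.3 K36A had 0 of 9 members past it (2.08% of tested genes), and its largest difference was -0.80 for Itga1. H3.3 K36L and K36I each had 1, Itga1 at -1.29 and -1.47 (1.03% and 7.63% of tested genes). H3.3 K36R had 1, Itga3 at -1.27 (1.76%). H3.3 K36M had 3 (8.69%), with Itgb5 at 1.01, Itga1 at -1.09 and Itgb3 at -1.27. H3.1 K36M had 3 (10.3%), all lower: Itga3 at -2.18, Itgb3 at -1.52 and Itga6 at -1.18. H3.1 K36R had 3 (3.33%), with Itga1 at 2.64, Itga3 at -1.87 and Itgb3 at -1.48. Lower Itga1 was thus shared by H3.3 K36I, K36L and K36M, and lower Itga3 by both H3.1 lines and H3.3 K36R. These 7 comparisons share the WT library.

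The laminin receptor chains α6 and α3 were lower in the 2 H3.1 lines than in the 6 H3.3 lines. Itga6, on chromosome 2 (71745616 to 71858416, plus strand), had 3233 normalised reads in H3.1 K36M, and H3.1 K36R had 4419. Among the H3.3 lines, K36M had 7270.2, WT 7494, K36A 7810.1, K36R 8936, K36L 9919.6 and K36I 10694. Every H3.3 line was above both H3.1 lines. The means were 3826 ± 839 (SD, n = 2) and 8687 ± 1401 (SD, n = 6), and with class as a term the difference was -1.15 (SE 0.18, limma adjusted p 0.0111).

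Itga3, on chromosome 11 (95044474 to 95076801, minus strand), fell further. H3.1 K36M had 73.6 normalised reads and H3.1 K36R had 112. Among the H3.3 lines, K36R had 217, K36M 612, K36L 621, K36A 654, WT 677 and K36I 986. The groups did not overlap, although H3.3 K36R lay closer to both H3.1 lines than to any other H3.3 line on the deposited log2 scale. The difference was -1.90 (SE 0.37, limma adjusted p 0.0229), with means of 92.6 ± 26.8 (SD, n = 2) and 628 ± 245 (SD, n = 6). With limma-voom on recovered reads the adjusted p was 0.0702. The summed epithelial markers were 563 to 724 in the H3.1 lines and 819.8 to 7854 in the H3.3 lines. Krt14 alone ran from 18.4 normalised reads in H3.1 K36M to 7403 in H3.3 K36L. The part of these markers in the Itga3 result was not tested.

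The collagen receptor chain α1 was higher in the H3.1 lines, mainly in 1 of them. Itga1, on chromosome 13 (114953096 to 115101964, minus strand), had 6389 normalised reads in H3.1 K36R and 1200.0 in H3.1 K36M. Among the H3.3 lines, K36I had 264, K36L 313, K36M 376, K36A 482, WT 927 and K36R 948. Both H3.1 lines were above every H3.3 line, and H3.1 K36R stood far above all. The difference was 2.45 (SE 0.44, limma adjusted p 0.0168), with means of 3795 ± 3669.5 (SD, n = 2) and 551 ± 308 (SD, n = 6). Without H3.1 K36R it was 1.62 with an adjusted p of 0.119. An exon of the gene model Gm49395 overlaps Itga1 on the same strand, so reads could be shared between them, and a model on the opposite strand, Gm13684, overlaps Itgav.

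Together with Itgb5, which was lower by 0.41 once class was a term (SE 0.08, adjusted p 0.0191; 13085 ± 5288 normalised reads, n = 2, against 15818 ± 5581, n = 6, with overlapping ranges), 4 of 9 members passed between H3.1 and H3.3, 1 higher and 3 lower. The background was 11.0% of tested genes, 5.65% higher and 5.37% lower. These calls rest on 2 H3.1 libraries. Without H3.1 K36M only Itga1 passed (183 of all tested genes), and Itga3 (-1.51), Itga6 (-0.92) and Itgb5 (-0.39) had adjusted p of 0.173, 0.108 and 0.123. Without H3.1 K36R, Itga3, Itga5 and Itga6 passed (1147 of all tested genes), Itga5 at 0.78 (adjusted p 0.0102), and Itgb5 had an adjusted p of 0.0656. In both cases the lone H3.1 library was assumed to vary like the others. Without H3.3 K36R 7 members passed, with Itgav, Itgb1 and Itgb3 added (adjusted p 0.0258, 0.034 and 0.0453), in a fit that called 1934 of all tested genes. Without H3.3 K36I the call for Itga3 was lost (adjusted p 0.0555). Within the 4 K36M and K36R libraries 0 members passed in limma, with 6 at an unadjusted p under 0.05, and of all 14215 genes 12 passed, with 1767 at an unadjusted p under 0.05.

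The other 5 members did not pass between the histones, yet 3 of them did not overlap between the groups, a pattern found in 22.7% of tested genes. Itgb3 had 1738 and 1788 normalised reads in the H3.1 lines and 2081 to 7839 in the H3.3 lines (difference -1.12, SE 0.30, adjusted p 0.0521). For Itga5, H3.1 K36M had 5999.8 and H3.1 K36R 4254, against 3412 to 4051 (0.43, SE 0.13, adjusted p 0.0662). Itgav had 25097 and 23603 in these lines, against 14131 to 22649 (0.50, SE 0.16, adjusted p 0.0796). Thus β3 was at the low end and the RGD-binding alpha chains at the high end in H3.1. Itgb1 differed by 0.32 (SE 0.13, adjusted p 0.153), where H3.1 K36M had 88356 and H3.1 K36R 71694, with the H3.3 lines from 54787 to 74187. For Itga11 the difference was 0.00 (SE 0.26, adjusted p 0.999), with a 95% interval from -0.61 to 0.61.

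**Figure D3:**
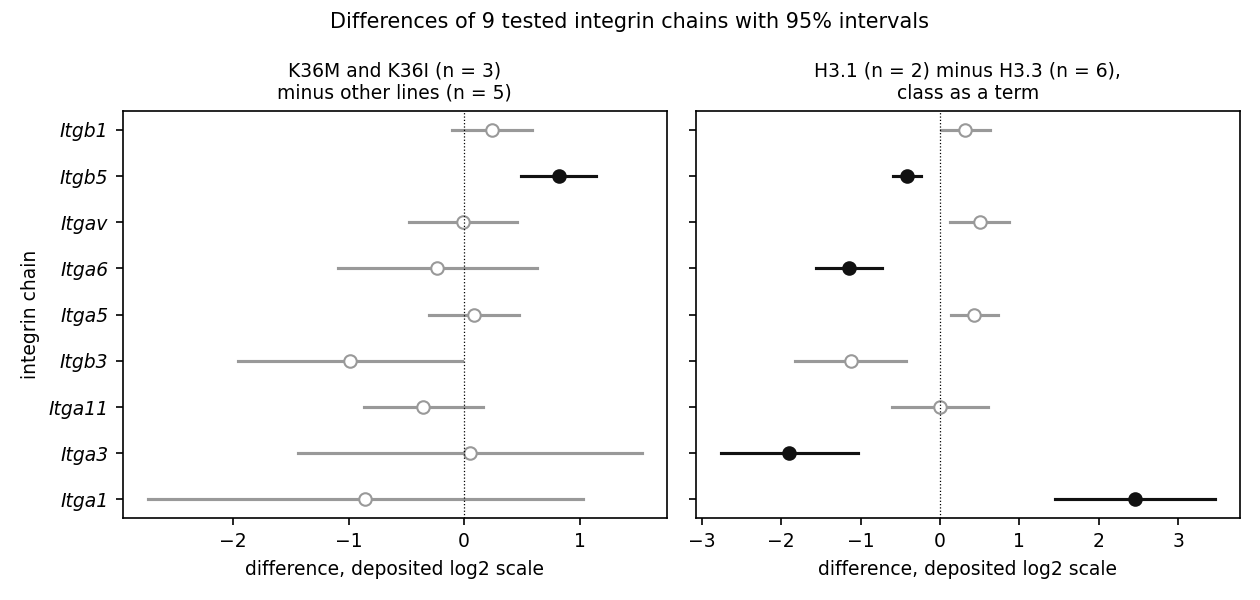
Differences of the 9 tested integrin chains on the deposited log2 scale (points) with 95% intervals (lines), for K36M and K36I against the other lines (left) and H3.1 against H3.3 with class as a term (right). Filled black points passed at an adjusted p of 0.05: Itgb5 at left, and Itga1, Itga3, Itga6 and Itgb5 at right.

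The make-up of the alpha chains followed these differences. Per kb, the laminin-binding chains α3 and α6 were 24.5% to 35.9% of the 7 alpha chains in the H3.3 lines, while H3.1 K36M had 8.91% and H3.1 K36R 12.3%. The RGD-binding chains α5 and αv were 59.8% to 67.9% in the H3.3 lines, while H3.1 K36M had 85.3% and H3.1 K36R 73.6%. The collagen-binding chains α1, α2 and α11 were 3.68% to 8.52% in the H3.3 lines, 5.77% in H3.1 K36M, and 14.1% in the H3.1 line with K36R, where Itga1 exceeded Itga11. In every other line Itga11 was the higher of these 2, with a ratio of Itga11 to Itga1 from 2.67 to 12.8 per kb against 0.70 in H3.1 K36R. The level of Itgb1 was 3.60 to 5.27 times the sum of the 7 alpha chains. These shares depend on the annotated exon length, which for Itga1 is 18.6 kb.

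**Figure D4:**
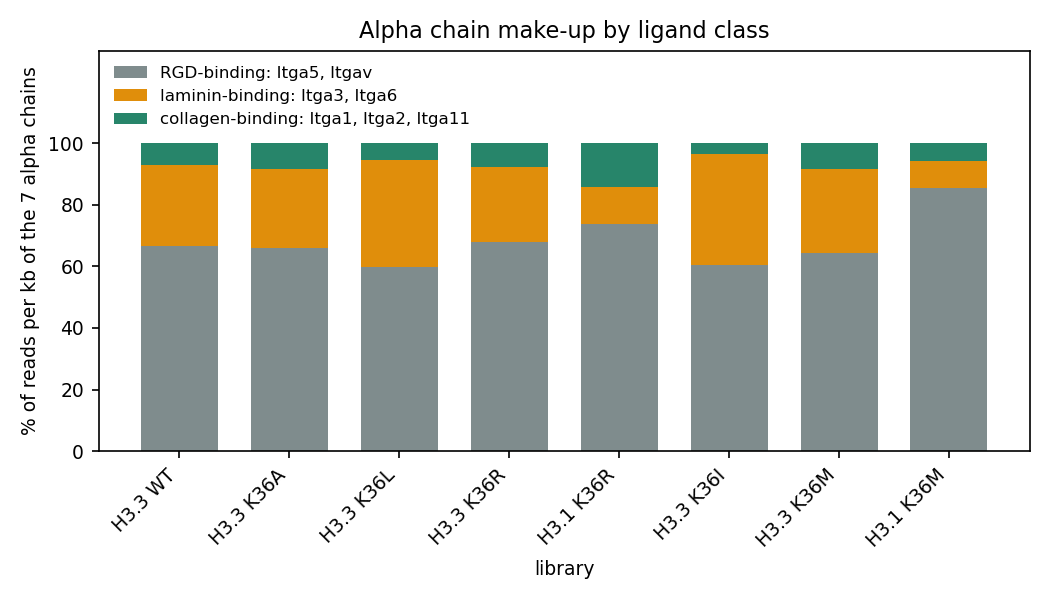
Share of each ligand class among the 7 alpha chains, in percent of normalised reads per kb, in each library. Laminin-binding chains make up 24.5% to 35.9% in the H3.3 lines and 8.91% and 12.3% in the H3.1 lines, and collagen-binding chains reach 14.1% in H3.1 K36R.

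Itga2 lies 21.0 kb from Itga1 on chromosome 13 (114833081 to 114932100, minus strand), the closest pair of integrin genes among the 10. It had 4 to 17 reads per library and failed the filter, so it entered no test. On H3.3, its normalised reads were 3.90 with K36L, 4.77 with K36M, 6.51 with WT, 6.81 with K36I, 8.62 with K36A and 14.2 with K36R. On H3.1 they were 22.3 with K36M and 10.9 with K36R. At so few reads no order among the lines could be read.

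Whether the class difference itself depended on the histone was tested with an interaction term added after the data were seen. In limma, 0 of 14215 genes passed, with 1582 at an unadjusted p under 0.05. Among the members Itga5 had the lowest p, with an effect 0.63 larger on H3.1 (SE 0.13, adjusted p 0.241). For Itgb5 the difference of effects was -0.04 (SE 0.16, adjusted p 0.943).

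Of the 16 other integrin chains, 10 were tested, and in the K36M and K36I lines 1 rose and 3 fell. Itga4 and Itgb8, among those that fell, entered the test only through their levels in the other lines. The share that passed over all tested genes, 13.3%, is the background for these chains and for the adaptors and ligands. Itgb7, the beta chain of leukocyte homing receptors, rose by 2.20 (SE 0.24, limma adjusted p 0.00103), from between 217 and 406 normalised reads in the other lines to between 1117 and 2484. Itga4, the alpha chain it can pair with, had 59.4 to 150.1 normalised reads in the other lines and at most 3.82 in the K36M and K36I lines. It passed the filter on low values only through the other lines, so its call is a description of these levels. Itgb4, the partner of α6 in hemidesmosomes, fell by 1.45 (SE 0.34, adjusted p 0.0245), with means of 507 ± 285 (SD, n = 3) and 1478 ± 443 (SD, n = 5). Itgb8, another partner of αv, was lower by 1.25 in the K36M and K36I lines. Its mean of 26.7 normalised reads there was below the filter. It too passed the filter only through the other lines, so its call is a description of these levels. Itgb7 passed without each of the 8 libraries in turn. Itgb4 lost the call without H3.3 K36A, K36M or K36R (adjusted p up to 0.0607), and Itgb8 without any 1 of 6 libraries (up to 0.124). Between H3.1 and H3.3, 0 of the 10 passed in limma and 0 in limma-voom, with 2 at an unadjusted p under 0.05 in each. Of all 14215 tested genes, 4326 in limma and 4189 in limma-voom were at an unadjusted p under 0.05 in this comparison. The summed leukocyte markers were 1052 to 1726 in the K36M and K36I lines and 444 to 844 in the others, mostly Cd14, and their part in the Itgb7 result was not tested.

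The adaptors that tie integrins to actin and to signalling mostly did not pass. Of 31 tested, 5 rose and 1 fell with K36M and K36I, beside the 13.3% of all tested genes, with a median difference of 0.01. Ptk2b, a kinase related to focal adhesion kinase, rose by 1.46 (SE 0.21, limma adjusted p 0.00322), and Src, the kinase that acts with focal adhesion kinase, rose by 1.09 (SE 0.09, adjusted p 2.57e-04). Src had 3843 to 4746 normalised reads in the K36M and K36I lines and 1846 to 2168 in the others. Bcar1 (p130Cas), a scaffold phosphorylated by Src, rose by 0.78, Dok1, which can bind beta chain tails, by 0.52 and Lims1 (PINCH), a partner of integrin-linked kinase, by 0.37. The paxillin gene Pxn fell by 0.32. Ptk2b and Src passed without each of the 8 libraries in turn, whereas Bcar1, Dok1, Lims1 and Pxn each lost the call without several single libraries (highest adjusted p 0.102, 0.142, 0.0652 and 0.132). In the H3.1 lines, talin 2 (Tln2) was higher by 0.87 and focal adhesion kinase (Ptk2) lower by 0.52. Both were named after their values were seen. In this comparison 29 of 31 did not pass, while 11.0% of all tested genes passed. Tln2 passed without each of the 8 libraries in turn, and Ptk2 lost the call without any 1 of 7 libraries (adjusted p up to 0.257), with no filter and with no intensity trend. Within the K36M and K36R libraries 0 of the 31 passed in limma, with 3 at an unadjusted p under 0.05. Of all 14215 genes, 12 passed there, with 1767 at an unadjusted p under 0.05.

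Among ligands, the genes for collagens bound by α1, α2 and α11 were split. Of 11 collagen genes 2 rose and 4 fell in the K36M and K36I lines, and their median difference was -0.68, against -0.01 over all tested genes. Col4a1 and Col4a2, the network collagen of basement membranes, rose by 0.99 and 0.71. Col2a1, the cartilage collagen, fell by 2.24 (SE 0.29, limma adjusted p 0.00201), Col6a2 and Col6a1 each by 1.06 and Col5a1 by 0.77. Col2a1, Col4a1 and Col6a1 passed without each of the 8 libraries in turn, and Col4a2, Col5a1 and Col6a2 lost the call without at least 1 (highest adjusted p 0.109, 0.0924 and 0.0832). Exons of Col4a1 and Col4a2 overlap on opposite strands, and the use of strand in counting is not given in the sources used here. Between H3.1 and H3.3, where Itga1 differed, 0 of the 11 passed in limma and 0 in limma-voom, with 6 at an unadjusted p under 0.05 in each. Of all 14215 tested genes, 4326 in limma and 4189 in limma-voom were at an unadjusted p under 0.05 there.

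Of 9 tested laminin chains 2 rose and 1 fell. Lama5 rose by 2.65 (SE 0.67, limma adjusted p 0.0339), from between 199 and 1649.5 normalised reads to between 1711 and 9825, and Lamb1 rose by 2.03 (SE 0.37, adjusted p 0.00865). Lamb3, a chain of the epithelial laminin, fell by 2.67 (SE 0.43, adjusted p 0.00537). Between H3.1 and H3.3, 11.0% of all tested genes passed. In the H3.1 lines Lama4 was higher by 1.41 and Lamc1 by 0.39, and Lama5 was lower by 2.03. All 3 were named after their values were seen. Without H3.1 K36M none of the 3 passed (adjusted p of 0.0576 for Lama4, 0.172 for Lamc1 and 0.114 for Lama5), and Lamc1 also lost the call without any 1 of 3 other libraries. Within the K36M and K36R libraries 0 of 9 laminin chains passed in limma, with 5 at an unadjusted p under 0.05. Of all 14215 genes, 12 passed in that fit, with 1767 at an unadjusted p under 0.05. Lamb1 and Lamb3 passed in the class comparison without each of the 8 libraries in turn, and Lama5 lost the call without H3.3 WT, K36I, K36M or K36R (adjusted p up to 0.129). The lower α3 and α6 in H3.1 thus stood beside both higher and lower laminin chains.

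Of 18 tested ligands bound through RGD or related motifs, 4 rose and 4 fell, with a median of -0.33. Spp1 (osteopontin), a ligand of αvβ3 and αvβ5, rose by 2.79 (SE 0.46, limma adjusted p 0.00609), and nephronectin (Npnt) by 2.71 (SE 0.36, adjusted p 0.00239). Ltbp1, which stores latent TGF-beta in the matrix, rose by 1.84. Fibrillin 2 (Fbn2) fell by 2.84, Edil3, another αv ligand, by 2.68 (SE 0.27, adjusted p 7.83e-04) and thrombospondin 1 (Thbs1) by 1.97. The fibronectin gene Fn1, outside the rule that named the others, fell by 1.01 (SE 0.21, adjusted p 0.0167), with means of 77021 ± 23866 normalised reads (SD, n = 3) and 152470.0 ± 23212 (SD, n = 5). The gene of its main receptor chain, Itga5, did not pass. Vitronectin (Vtn) was at 0 normalised reads in the other lines and at most 3.94 in the K36M and K36I lines, so this ligand of αvβ5 was near the limit of detection. Spp1, Npnt, Ltbp1 and Edil3, and Mfge8 outside the naming rule, passed without each of the 8 libraries in turn. Thbs1 lost the call without any 1 of 6 libraries (adjusted p up to 0.14), Fn1 without H3.3 K36I or K36M (up to 0.0654) and Fbn2 without H3.3 K36I (0.0528). Over the 5 lists of other chains, adaptors and ligands, 27 genes passed, and 15 did without H3.3 K36M. Over all tested genes 1887 passed and 1021 did without that library. The 27 include Itga4 and Itgb8, which passed the filter only through the other lines.

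**Figure D5:**
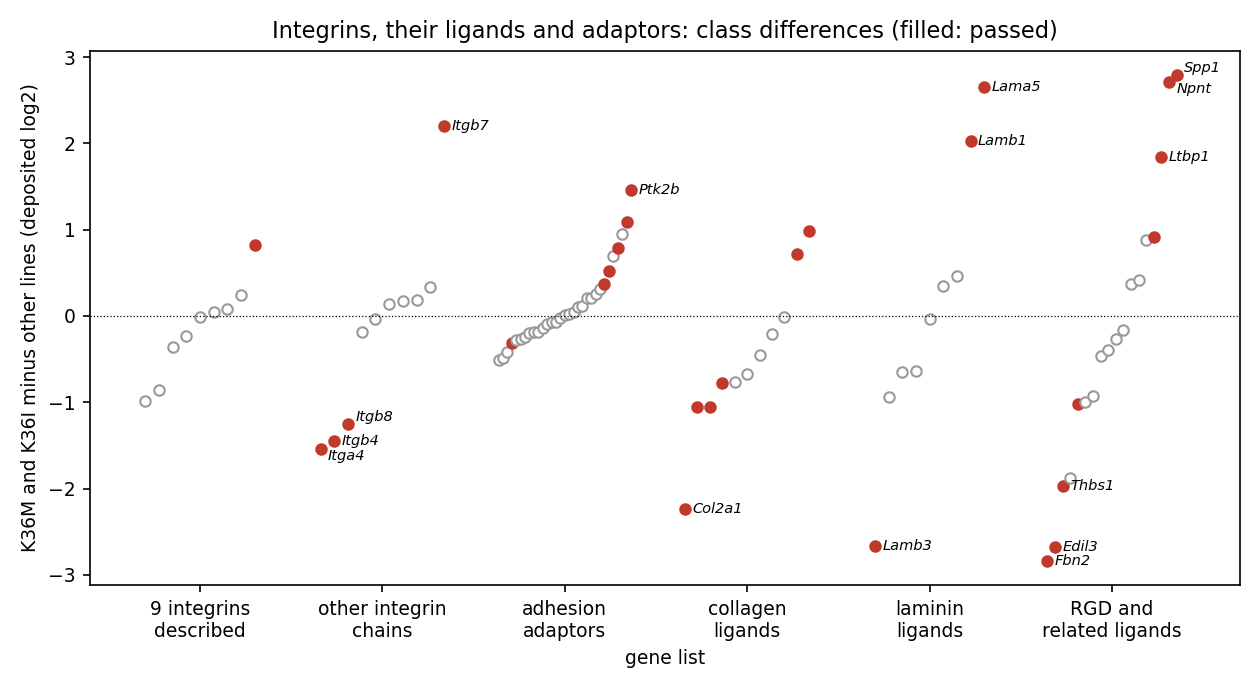
Differences between the K36M and K36I lines and the other lines on the deposited log2 scale for every tested gene of 6 lists, ordered within each list. Filled points passed at an adjusted p of 0.05, and those beyond 1.2 are named. Itga4 and Itgb8 entered the test only through their levels in the other lines. The only filled member among the 9 integrins is Itgb5 at 0.82.

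The 3 members of widest range were set beside the tested genes most like them, by Pearson correlation over the 8 libraries on the deposited scale. For Itga1 these were Tnn (tenascin N, r = 0.996) and Zfp74 (0.984). From H3.3 K36I to H3.1 K36R, Tnn ran from 10.2 to 273 normalised reads and Zfp74 only from 483 to 819. Itga1 had 6389 in H3.1 K36R and at most 1200.0 in any other line, so this library weighs heavily in both correlations. For Itga3 they were Txlng (0.987), Mrps24 (0.975) and Gpr89 (0.974), each of which spanned far less than Itga3. For Itgb3 they were Tacc2 (0.986), Krt14 (0.982) and Crcp (0.982). Crcp ran only from 1439 to 1914 normalised reads, against 1738 to 7839 for Itgb3. Among the members themselves, Itga3 and Itga6 moved together (r = 0.84), and Itga3 and Itgav moved oppositely (r = -0.88). These 8 points share the 2 shallower H3.1 libraries, and the correlations are a description.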

How the data were processed

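RNA-seq was done on 8 C3H10T1/2 lines, 1 library each. Per the submitters' processing notes, reads were handled with Trimmomatic 0.32, STAR 2.3.0e, featureCounts 1.4.4 and DESeq2, and the build was mm10. How these were run, with which gene models and with what strand setting, is not given in the sources used here. What the authors deposited are log2 values, variance-stabilised gene counts with no division by gene length. The form of the transformation was read from the values. Inverting it gave whole reads for 100% of values within 0.001 reads, with a lowest value of 5.95 standing for 0 reads. All 8 columns were matched to a line by transgene name.

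Genes were tested with limma 3.58.1 (intensity trend, R 4.3.3, two-sided) on the deposited values. Genes entered with a mean 1 or more above the lowest value, or about 31 normalised reads. Of 31276 genes, 14215 passed this filter, and p-values were adjusted over them by Benjamini-Hochberg, with a threshold of 0.05. The comparisons were K36M and K36I (3 lines) against the other 5, K36M against K36R with histone as a term, H3.1 against H3.3 with class as a term, and each line against H3.3 WT with no test. The scripts were tested on simulated data. Array weights, limma-voom, log2 of normalised reads plus 1, other filters, equal library medians, other covariates and leaving out libraries were the alternatives. Depth was 45448249 to 68020958 reads, at which 3 reads, the limit for a count of 0, make at most 6.6e-06% of a library, for counting error only.

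Gene positions and merged exon lengths came from GENCODE M21 on GRCm38, and promoters from RefSeq on GRCm38.p6. All 131 listed genes were found in the table, some under older symbols. Members and lists were chosen with earlier results of these data known. All members are named. Of each other list, the genes that passed between classes are named, at most 6 by absolute difference. For the 3 members of widest range, the 3 most correlated genes are named, except 1 that the table lists only by a transcript identifier.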

Additional observations from a re-analysis of the deposited data

Results flagged for a closer look

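Of 20 checks for a library far from the rest of its group, 2 found one, and chance gives about 1 in 20. Among the 5 lines without K36M or K36I, Itgb5 was low in H3.1 K36R (9346 normalised reads), with a gap to the next line of 0.783 of the range. Among the 6 H3.3 lines, Itga3 was low in H3.3 K36R (217 normalised reads), with a gap of 0.657 of the range.

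In 4 members the difference between K36M and K36R had opposite signs on the 2 histones. On the deposited log2 scale, the H3.1 difference minus the H3.3 difference was -1.46 for Itga3, 0.57 for Itga5, 0.62 for Itgav and 0.35 for Itgb1. With 1 library for each substitution on each histone, these differences were not tested.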

How the results depend on the processing

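The labels give no replicate numbers to pair by, and histone was the block in K36M against K36R. The number of members that passed between the K36M and K36I lines and the others was 1, and 2 (Itgb3 and Itgb5) with array weights or with the 6 H3.3 libraries alone, an alternative chosen after seeing the data. Without each library in turn it was 1 to 2. Among ligands, adaptors and other chains, 27 passed, 42 with array weights and 15 to 33 without each library. In K36M against K36R, 1 member passed, 2 (Itga1 and Itgb5) with limma-voom or log2 of normalised reads plus 1, and 0 with no filter, no intensity trend or no histone term, where limma gave 3, 2 and 1 members at an unadjusted p under 0.05. Leaving out a library there also meant leaving out the histone term, for lack of residual degrees of freedom. With both left out, 0 to 0 passed in limma, with 1 to 3 at an unadjusted p under 0.05, and the 2 changes cannot be told apart. Between H3.1 and H3.3, 4 passed, 0 within the K36M and K36R libraries, and 1 to 7 without each library. Counts against WT stayed within 1.5 times under equal medians and log2 of normalised reads plus 1.

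Reversals concerned members that had not passed. In the class comparison these were Itgav at 0.038 with equal medians, Itga3 at -0.049 with log2 of normalised reads plus 1, Itga5 at -0.12 with array weights and -0.15 over the H3.3 libraries, and Itga6 at 0.055 over the H3.3 libraries. Between H3.1 and H3.3, Itga11 was -0.0028 with equal medians and -0.33 within the K36M and K36R libraries. Leaving out libraries gave class differences of -0.49 to 0.83 for Itga3, -0.22 to 0.12 for Itgav, -0.18 to 0.22 for Itga5 and -0.61 to 0.24 for Itga6. For K36M against K36R, leaving out a library and the histone term together, which mixes in the difference between H3.1 and H3.3, gave -0.61 to 1.45 for Itga3, -0.57 to 0.12 for Itgav, -0.93 to 0.20 for Itga6, -1.08 to 0.084 for Itgb3, -0.20 to 0.59 for Itga5, -0.50 to 0.027 for Itga11 and -0.026 to 0.28 for Itgb1. For Itga11 between the histones, leaving out libraries gave -0.17 to 0.19.

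Over all genes, 917 higher and 970 lower passed in the class comparison, 1540 higher with no filter, 1451 and 1508 with histone as a covariate, 1969 and 2105 with array weights, and 511 to 989 and 510 to 1095 without each library. In K36M against K36R, 306 and 333 passed, 97 and 125 without the histone term, 0 and 0 with no filter (3226 at an unadjusted p under 0.05 in limma), and 0 to 206 and 0 to 265 without each library and the histone term together (1223 to 2204 at an unadjusted p under 0.05). Between H3.1 and H3.3, 803 and 764 passed, 10 and 2 within the K36M and K36R libraries, and 131 to 1019 and 52 to 915 without each library. The cause of these changes was not tested.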
